A study of Mus musculus with 16 samples.

Results

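The CC and CXC chemokine ligands were followed in RNA-seq of mouse tumor, MSC and bone marrow. Members were chosen by name, as every protein-coding gene with a Ccl or Cxcl symbol and a number, leaving out Cxcl12. This gave 41 of the 55536 genes in the count table, of which 30 were CC and 11 were CXC ligands. The mice carried the genotype KLF K74R or KLF WT. K74R puts arginine in place of lysine. The sample titles call the mutants KO, and of the gene they say no more than KLF. A point change of this kind cannot be checked from counts per gene. Tumors of the MC38 line, a mouse colon adenocarcinoma, had reached at most 1000 mm3 and gave 3 K74R and 3 WT libraries. MSC, an abbreviation that the labels leave unexpanded, gave 2 K74R and 2 WT libraries, and bone marrow gave 3 of each. The genotype is given for the mouse. MC38 is an established line, and its transcripts and those of the host are counted together in tumor. The labels give neither the age of the mice nor whether libraries came from separate mice or cultures. The p-values therefore measure only the spread between these libraries, which may be technical.

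Chemokines are small secreted proteins that steer migrating cells along gradients by binding G-protein-coupled receptors on leukocytes. CC and CXC ligands are told apart by the spacing of their first cysteines, and most bind more than 1 receptor, so the receptor groups used here name only the receptor each ligand is best known for. In tumors, ligands of CCR2 draw monocytes, ligands of CXCR2 draw neutrophils, and the interferon-induced ligands of CXCR3 draw T cells and NK cells.

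Library totals lay between 14067259 and 18923751 counts. The unit of level is CPM, the count scaled to a total of 1000000 after the library totals were multiplied by trimmed mean of M-values factors. Levels of different genes are compared only as CPM per kilobase of exon. The MSC libraries held a summed fibroblast and stromal marker level of 10832 and 13962 CPM in K74R and 7685 and 5073 CPM in WT, with 1 of its 7 markers, Lum, under 1 CPM in every library. They also held 7 of 7 macrophage markers, and 5 of 7 T cell markers, Cd3d, Cd3e, Cd3g, Cd8a and Cd8b1, were at 0 in all 4. The epithelial marker sum was 80.1 CPM in K74R MSC 1 and 1.6 to 12.8 CPM in the other 3. Krt19 alone made up 79.4 CPM of the former, and Cdh1, Cldn7, Krt8 and Epcam were under 1 CPM in every MSC library. In tumors 5 of 6 epithelial markers were under 1 CPM in every library. K74R tumor 2 stood apart, with a summed T cell marker level of 7.8 CPM where the other 5 tumors had 20.6 to 31.4 CPM. In bulk tissue, fewer cells of a type and less RNA per cell cannot be told apart.

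Of the 41 members, 10 were at 0 in all 16 libraries. These were Ccl26, Ccl27b, both rows of Ccl27, Ccl21c, both rows of Ccl21a, 2 of the 3 rows of Ccl21b and 1 of the 2 rows of Ccl19. Ccl19, Ccl21 and Ccl27 have near-identical copies, and the treatment of reads with several matches is unknown, so these values are uncertain. Another 5 members had under 20 counts over all libraries: Ccl19 with 11, Cxcl17 with 6, Ccl20 with 4, the third row of Ccl21b with 2 and Cxcl15 with 1. Members at 0 in every library of a tissue numbered 11 in tumor, 18 in MSC and 15 in bone marrow. A count of 0 allows up to 3 counts over a tissue, or 0.0263 CPM in tumor, 0.0473 CPM in MSC and 0.0343 CPM in bone marrow, covering counting error only. Members averaging at least 10 CPM numbered 12 in tumor, 6 in MSC and 3 in bone marrow.

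The sequence just upstream of the start is shown for the CXCR3 and CXCR2 ligands that were called higher in tumor than in both other tissues, Cxcl10, Cxcl9, Cxcl1, Cxcl2 and Cxcl3. Each is the 250 bases before the start from RefSeq on GRCm38.p6, written 5′ to 3′ on the gene's own strand. They lie at chr5:92348890-92349139 and chr5:92328080-92328329 on the minus strand, and at chr5:90890995-90891244, chr5:90903649-90903898 and chr5:90785851-90786100 on the plus strand. Capitals mark matches to the core of the interferon-stimulated response element, GAAA followed after any 2 bases by a further GAAA, and to the NF-kB consensus, both searched on either strand.
Cxcl10: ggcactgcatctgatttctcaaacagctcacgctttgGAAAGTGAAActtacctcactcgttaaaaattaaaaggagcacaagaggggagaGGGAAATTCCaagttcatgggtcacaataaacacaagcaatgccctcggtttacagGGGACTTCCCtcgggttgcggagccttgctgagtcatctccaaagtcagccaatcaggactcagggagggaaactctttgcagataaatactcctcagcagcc
Cxcl9: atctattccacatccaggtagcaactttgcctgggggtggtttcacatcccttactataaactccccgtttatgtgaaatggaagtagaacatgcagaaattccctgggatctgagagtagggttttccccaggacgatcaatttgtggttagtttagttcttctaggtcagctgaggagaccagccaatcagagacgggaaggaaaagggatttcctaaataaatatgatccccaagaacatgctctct
Cxcl1: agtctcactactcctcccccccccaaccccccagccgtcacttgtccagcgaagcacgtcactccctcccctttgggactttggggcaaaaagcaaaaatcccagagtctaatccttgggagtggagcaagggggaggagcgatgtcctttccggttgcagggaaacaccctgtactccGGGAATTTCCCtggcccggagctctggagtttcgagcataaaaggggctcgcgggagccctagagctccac
Cxcl2: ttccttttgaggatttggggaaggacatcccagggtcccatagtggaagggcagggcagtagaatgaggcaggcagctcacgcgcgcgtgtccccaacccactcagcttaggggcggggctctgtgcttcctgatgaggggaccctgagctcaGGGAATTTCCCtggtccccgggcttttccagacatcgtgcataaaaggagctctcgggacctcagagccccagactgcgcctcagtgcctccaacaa
Cxcl3: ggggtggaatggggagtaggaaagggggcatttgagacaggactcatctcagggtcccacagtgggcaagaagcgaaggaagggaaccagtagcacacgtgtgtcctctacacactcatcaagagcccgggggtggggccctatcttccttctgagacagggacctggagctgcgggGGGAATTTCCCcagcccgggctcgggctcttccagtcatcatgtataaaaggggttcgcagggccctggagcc
Cxcl10 held the interferon-stimulated core 213 to 204 bases before its start and NF-kB matches at 159 to 150 and at 103 to 94. Cxcl1, Cxcl2 and Cxcl3 shared the same 11 letters, GGGAATTTCCC, at 71 to 61, 97 to 87 and 73 to 63 bases before the start, and in each gene these letters hold a pair of overlapping NF-kB matches. Cxcl9 had neither motif in this window, which says nothing of the factors themselves. Over all 32851 windows of this length, 2.98% held the interferon-stimulated core and 3.9% the NF-kB consensus. Of the 24 member symbols with a window, 3 held the core, Ccl19, Cxcl10 and Cxcl14, and 6 held the NF-kB consensus, Ccl20, Ccl9, Cxcl1, Cxcl10, Cxcl2 and Cxcl3. These symbols have 30 windows, of which 3 held the core and 6 the NF-kB consensus. The gamma-activated site, TTCNNNGAA, was in 2 of the 30 member windows, those of Ccl17 and Cxcl14, against 7.02% of all windows. The CACCC-type box that KLF factors are known to bind, CCNCNCCC, was in 12 of the 24 symbols, all 5 genes printed here among them. Counted by window it was in 14 of 30, against 45.9% of all windows. Its match in Cxcl10 at 165 to 158 overlaps an NF-kB match. These are letter matches in a fixed window, and no binding was measured.

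Each tissue had its own leading ligands. Per kilobase, tumor was led by Ccl2, which draws monocytes, and Cxcl10, MSC on average by Cxcl14, a ligand whose receptor is still debated, and bone marrow by Ccl6, a CCR1 ligand of mouse myeloid cells. Ccl2 averaged 174.7 ± 28 CPM per kilobase in tumor and Cxcl10 129.9 ± 15.1 (SD, n = 6 each), with Ccl2 the higher in 6 of 6 tumors although their ranges overlapped. Behind them, Ccl7 had 84.8 ± 16, Ccl8 58.2 ± 19.9 and Ccl6 53.9 ± 34.9 CPM per kilobase, and from Ccl7 down to Ccl12 each ligand overlapped the next in range. In bone marrow Ccl6 averaged 85.2 ± 16.7 and Ccl9 21.2 ± 3.92 CPM per kilobase (SD, n = 6), without overlap, and Ccl6 alone made up 60.1% to 70% of the summed level of all members. Cxcl14 in MSC averaged 139.9 ± 98.5 CPM per kilobase (SD, n = 4), but was above second-ranked Ccl7 only in the 2 WT libraries and below it in the 2 K74R libraries.

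**Figure D1:**
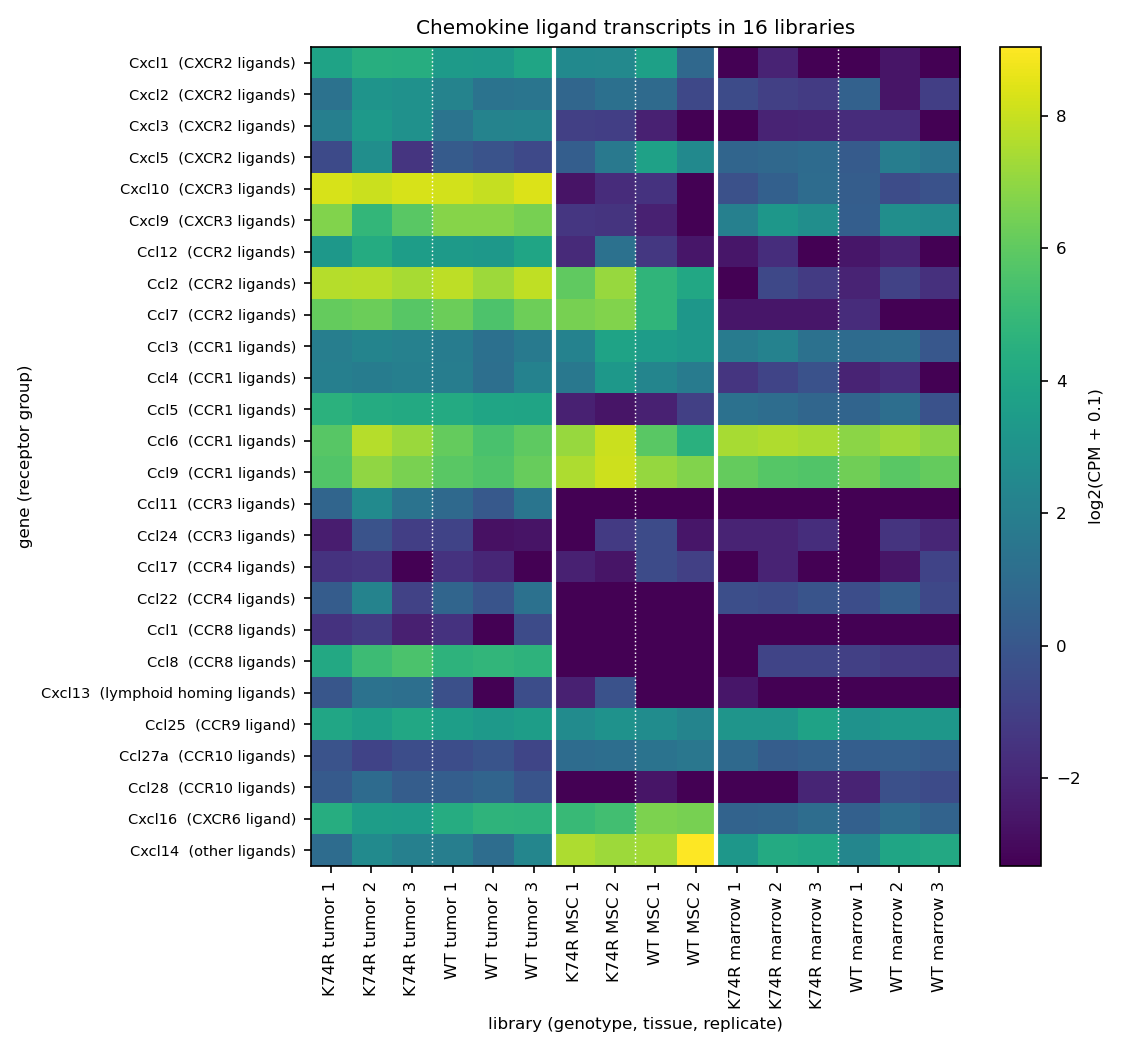
Levels of the 26 members with at least 20 counts over all 16 libraries, as log2(CPM + 0.1), 1 column per library in the order tumor, MSC, bone marrow and with K74R left of WT in each. Along a row, Cxcl10, Ccl2 and Cxcl9 are brightest in the 6 tumors and Cxcl14 and Cxcl16 in the 4 MSC libraries, while Ccl6 is bright in all 3 tissues.

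**Figure D2:**
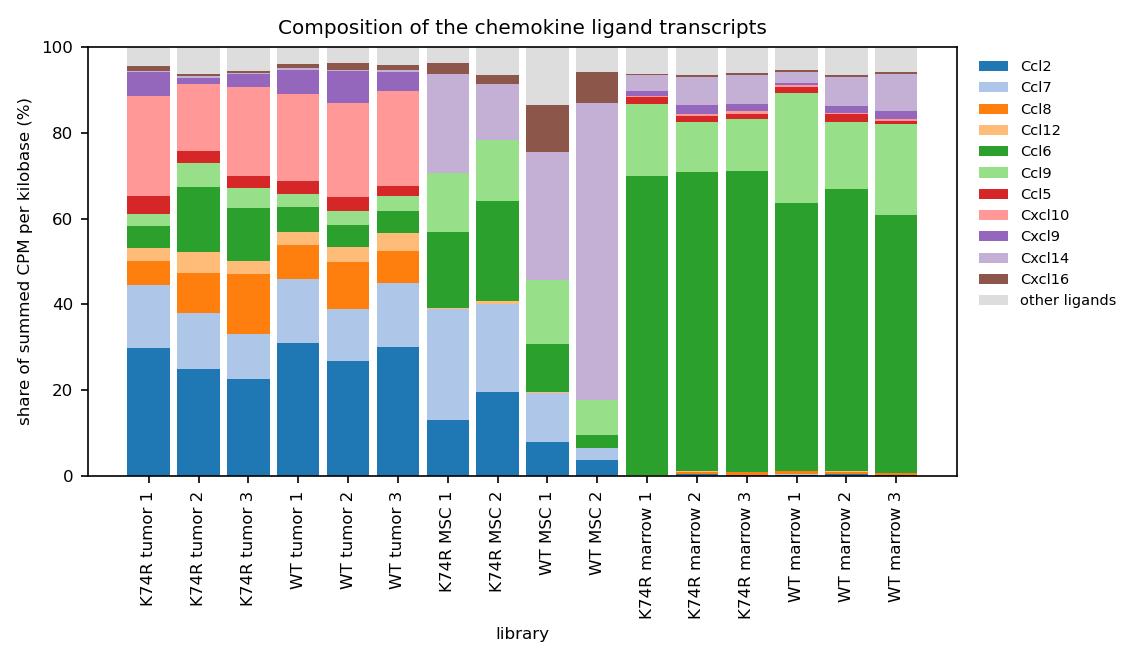
Share of the summed CPM per kilobase of all members taken by each ligand, 1 bar per library. Ccl6 fills 60.1% to 70% of every bone marrow bar, while Cxcl14 takes 13% to 69.2% of the MSC bars.

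Tissue differences were tested in a single model of all libraries, averaged over the genotypes, for the 23 members that passed its filter on low counts, some of them only through the tissue where they are high. By edgeR's quasi-likelihood test, Benjamini-Hochberg adjusted over all genes tested, 15 members were higher and 6 lower in tumor than in MSC, where 72.5% of all 18191 genes were called, 37.8% higher and 34.7% lower. Tumor against bone marrow had 17 higher and 3 lower, with 82% of all genes called, 41.4% higher and 40.6% lower. MSC against bone marrow had 11 higher and 8 lower, with 77% called, 36.7% higher and 40.2% lower. The counts of members called, 21, 20 and 19 of 23, must be read against these high shares. The median log2 fold change of the members was 1.53, 3.53 and 1.12, in the same order, and 0.06, 0.02 and −0.07 for all genes. Setting the members that were at 0 in a tissue to their bound, 3, 1 and 2 of them, left the 3 medians unchanged.

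Cxcl10 and Cxcl9, the CXCR3 ligands, were high in tumor and low in the other tissues. Cxcl10 had 317.1, 261.7 and 308.1 CPM in K74R tumors and 291.9, 243.9 and 332.3 CPM in WT tumors, at most 0.246 CPM in any MSC library, and 0.643 to 1.95 CPM in bone marrow. Its log2 fold change in tumor was 11.10 over MSC (SE 0.30, adjusted p 4.2e-13, edgeR) and 8.10 over bone marrow (SE 0.20, adjusted p 2.7e-14, edgeR). Cxcl9 was higher in tumor too, by 9.15 over MSC (SE 0.66) and 3.86 over bone marrow (SE 0.35) on the log2 scale. Bone marrow kept a low Cxcl9 level of 1.2 to 9.18 CPM, and it exceeded every MSC library. The genes lie 18.6 kb apart on chromosome 5, yet their ratio per kilobase varied from 2.94 to 12 among tumors, the highest being that of K74R tumor 2.

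The CCR2 ligands Ccl2, Ccl7 and Ccl12 were high in tumor, partly shared with MSC, and nearly absent from bone marrow. Ccl2 (chromosome 11, 82035571 to 82037453, GRCm38, plus strand) had 205.2, 211.2 and 169.5 CPM in K74R tumors and 226.7, 151.0 and 229.5 CPM in WT tumors. MSC libraries had 64.6 and 139.8 CPM in K74R and 26.9 and 17 CPM in WT, and no bone marrow library exceeded 0.548 CPM. The tumor level was above every MSC and marrow library. Its log2 fold change in tumor was 2.07 over MSC (SE 0.23) and 9.40 over bone marrow (SE 0.34). Ccl7, 8.26 kb away, had 48.6 to 79.9 CPM in tumors and at most 0.2 CPM in bone marrow, but its MSC range of 9.35 to 103.9 CPM spanned the tumors. Ccl12, with 9.37 to 19.5 CPM in tumors, reached 2.34 CPM in 1 MSC library and at most 0.205 CPM in bone marrow.

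Of the ligands of CCR8, CCR3 and CCR4, Ccl8, Ccl11 and Ccl22 passed the filter and had their highest means in tumor, while Ccl1, Ccl17 and Ccl24 stayed under 1 CPM in every library and Ccl26 was at 0. Ccl8, which in mice binds CCR8, had 17.5, 35.5 and 46.9 CPM in K74R tumors and 25.6, 27.7 and 25.3 CPM in WT tumors, 0 in all MSC libraries and at most 0.487 CPM in bone marrow. Against the floor of the MSC libraries it was at least 629.3-fold higher in tumor. The eotaxin Ccl11, a draw for eosinophils, had 0.986 to 5.85 CPM in tumors and 0 elsewhere, at least 53.8-fold above the MSC floor and 74.1-fold above the marrow floor. Ccl22, a CCR4 ligand that draws regulatory T cells, was at 0 in MSC and at least 37.7-fold higher in tumor. Its call over bone marrow (log2 fold change 1.22, adjusted p 0.0375, edgeR) held in 13 of 24 alternatives. It was lost without K74R tumor 2 (1.22 became 0.54, adjusted p 0.197, edgeR), and also without WT tumor 1 or 3, K74R marrow 1, 2 or 3, or WT marrow 1 or 3, with an adjusted p of up to 0.0951, and with relative log expression factors, limma-voom or WT libraries alone.

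CXCR2 ligands split. Cxcl1, Cxcl2 and Cxcl3 were higher in tumor than in both other tissues, Cxcl1 with 9.72 to 21.6 CPM in tumors, 1.69 to 12.9 CPM in MSC and at most 0.137 CPM in bone marrow. Over MSC, the calls of Cxcl1 (log2 fold change 1.22) and Cxcl2 (1.53) were lost among WT libraries alone, at 0.67 (adjusted p 0.359, edgeR) and 1.40 (adjusted p 0.124, edgeR), and that of Cxcl2 also without WT MSC 2 (adjusted p 0.053). Cxcl5 went the other way between tumor and MSC, with a log2 fold change of −1.64 (SE 0.64, adjusted p 0.0302, edgeR), a call that held in 18 of 24 alternatives and was lost without K74R MSC 2 (adjusted p 0.163), WT MSC 1 (0.116), K74R tumor 1 (0.0521), WT tumor 2 (0.0523) or WT tumor 3 (0.0625) and with library size alone (0.0587). Its levels were 0.275 to 6.82 CPM in tumor, 1.18 to 13.3 CPM in MSC and 1.07 to 3.66 CPM in bone marrow, and all 3 ranges overlapped. Cxcl16, the transmembrane ligand of CXCR6, was highest in MSC. It had 11.3 to 26.5 CPM in tumors, 32.4 to 98.3 CPM in MSC and 1.27 to 2.02 CPM in bone marrow, without overlap between any of the tissues.

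Ccl5, an inflammatory ligand made by T and NK cells, had 23.9, 19.6 and 18 CPM in K74R tumors and 18.6, 15.5 and 15 CPM in WT tumors, at most 0.406 CPM in MSC and 0.765 to 2.37 CPM in bone marrow. Ccl3 and Ccl4, inflammatory proteins of macrophages, had their highest means in MSC, Ccl3 with 4.35 and 14.2 CPM in K74R and 11.1 and 9.48 CPM in WT, and Ccl4 with 3 and 9.48 CPM in K74R and 4.8 and 3.45 CPM in WT. Ccl4 in MSC overlapped the 2.22 to 4.29 CPM of tumors, and the difference of these tissues did not pass the test (log2 fold change −0.49, SE 0.32, tumor over MSC). Ccl6 was high in all 3 tissues, with 45.1 to 202.1 CPM in tumor, 22.5 to 265.2 CPM in MSC and 117.4 to 190.2 CPM in bone marrow. Among WT libraries it averaged 40.8 CPM in MSC, against 128.1 CPM in bone marrow. Averaged over the genotypes it was 0.76 lower on the log2 scale in tumor than in bone marrow and 0.73 lower in MSC. The first call was lost with library size alone (adjusted p 0.0558, edgeR). The second (adjusted p 0.0451, edgeR) held in 12 of 24 alternatives and was lost with a replicate block (0.0758) and without any 1 of the 6 marrow libraries, K74R MSC 1 (0.187), WT MSC 2 (0.218), K74R tumor 3 (0.054), WT tumor 1 (0.0522) or WT tumor 3 (0.055). Ccl25, a CCR9 ligand of thymus and gut, stayed within 4.74 to 17.1 CPM in all 16 libraries. It overlaps Elavl1 on the opposite strand, and since the strand setting of the counting is unknown, reads of the 2 genes cannot be told apart. Ccl2, Ccl6 and Cxcl10 likewise overlap Gm17268, E230016K23Rik and Art3.

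Cxcl14 had 185.2 and 150.3 CPM in K74R MSC and 162.3 and 524.7 CPM in WT MSC, against 5 to 18.6 CPM in bone marrow and 1.98 to 5.9 CPM in tumor. Every MSC library was above all others. WT MSC 2 stood far above the other 3. The log2 fold change was −5.99 in tumor over MSC (SE 0.41) and 4.14 in MSC over bone marrow (SE 0.37).

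In MSC, 13 members passed the filter for K74R against WT. Cxcl16 fell, and no member rose, by edgeR's quasi-likelihood test at an adjusted p under 0.05. That is 1 of 13, with 1.29% of all 14475 genes called lower and 3.34% called in either direction. Cxcl16 (chromosome 11, 70453983 to 70459984, GRCm38, minus strand) had 32.4 and 39.1 CPM in K74R MSC, against 98.3 and 89.1 CPM in WT MSC. The genotypes did not overlap. Its log2 fold change was −1.40 (SE 0.19, adjusted p 0.0319, edgeR). Leaving out a library ended the call in 3 of 4 cases: the adjusted p was 0.142 without K74R MSC 1, 0.055 without WT MSC 1, 0.0571 without WT MSC 2 and 0.0484 without K74R MSC 2. Cxcl16 overlaps Zmynd15 on the opposite strand, and their reads cannot be told apart.

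The largest differences in MSC were gains in K74R that did not pass the adjusted threshold. Ccl7 had 91.7 and 103.9 CPM in K74R MSC, against 27.4 and 9.35 CPM in WT MSC, with a log2 fold change of 2.40 (SE 0.50, adjusted p 0.0604, edgeR). Ccl2 had the values given above and a log2 fold change of 2.21 (SE 0.43, adjusted p 0.0561, edgeR). In both genes every K74R library was above every WT library. Ccl6 had 140.6 and 265.2 CPM in K74R MSC, against 59.2 and 22.5 CPM in WT MSC, with a log2 fold change of 2.30 (SE 0.54, adjusted p 0.0753, edgeR). Ccl9, its neighbour 9.25 kb away, had 182.7 and 270.7 CPM in K74R MSC, against 136.1 and 103.9 CPM in WT MSC, with a log2 fold change of 0.91 (SE 0.27, adjusted p 0.112, edgeR). Of the 13 members tested, these 4 had both K74R libraries above both WT libraries, as did 30.4% of all genes tested. Cxcl5 had 1.18 and 3.05 CPM in K74R MSC, against 13.3 and 5.82 CPM in WT MSC, with a log2 fold change of −2.19 (SE 0.61, adjusted p 0.103, edgeR). With Cxcl16 and Ccl27a it made up the 3 tested members below WT in every library, as were 29% of all genes tested. Members too low to be tested also separated in CPM, Cxcl3, Cxcl9 and Cxcl13 above WT and Ccl5 and Ccl17 below it, all under 1 CPM in every MSC library. These rest on at most 12 counts in a library. Ccl5 had 2 counts in both K74R MSC 1 and WT MSC 1, so only the scaling to library size separated it. At an unadjusted p under 0.05, 4 members were higher and 2 lower, 6 of 13, where 26% of all genes tested passed, 13.5% higher and 12.5% lower. The median log2 fold change was 0.33 for the members and 0.00 for all genes. DESeq2 called 6 members, Ccl2, Ccl6, Ccl7 and Ccl9 higher and Cxcl16 and Cxcl5 lower, but called 1906 genes in all, against 484 by edgeR, and limma-voom called Cxcl16 alone. Without WT MSC 1, edgeR called Ccl7 at 3.39 (adjusted p 0.00452), Ccl6 at 3.17 (0.0184), Ccl2 at 2.59 (0.0459) and, lower, Cxcl14, and without WT MSC 2 it called Ccl7 at 1.82 (0.0457).

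The balance of the families in MSC differed between the genotypes too. CC ligands made up 73.4% and 83.8% of the summed CPM per kilobase in K74R MSC, against 54.2% and 22.7% in WT MSC, without overlap. In WT MSC 2, the library with 22.7%, Cxcl14 alone took 69.2% of the sum. Of all genes tested in MSC, 59.4% had genotypes that did not overlap. Marker levels of other cells differed between the same libraries. The 7 macrophage markers summed to 2339 and 4290 CPM in K74R MSC, against 8682 and 6842 CPM in WT MSC, all 7 lower in every K74R library and C1qa past the adjusted threshold. The 6 endothelial markers summed to 15.9 and 24.8 CPM in K74R MSC, against 290.9 and 1555 CPM in WT MSC, with Pecam1, Cdh5, Tek and Emcn past the threshold. Fibroblast and stromal markers summed higher in K74R, as given above, and of 6 tested none passed the threshold. Their part in the chemokine differences was not tested.

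**Figure D3:**
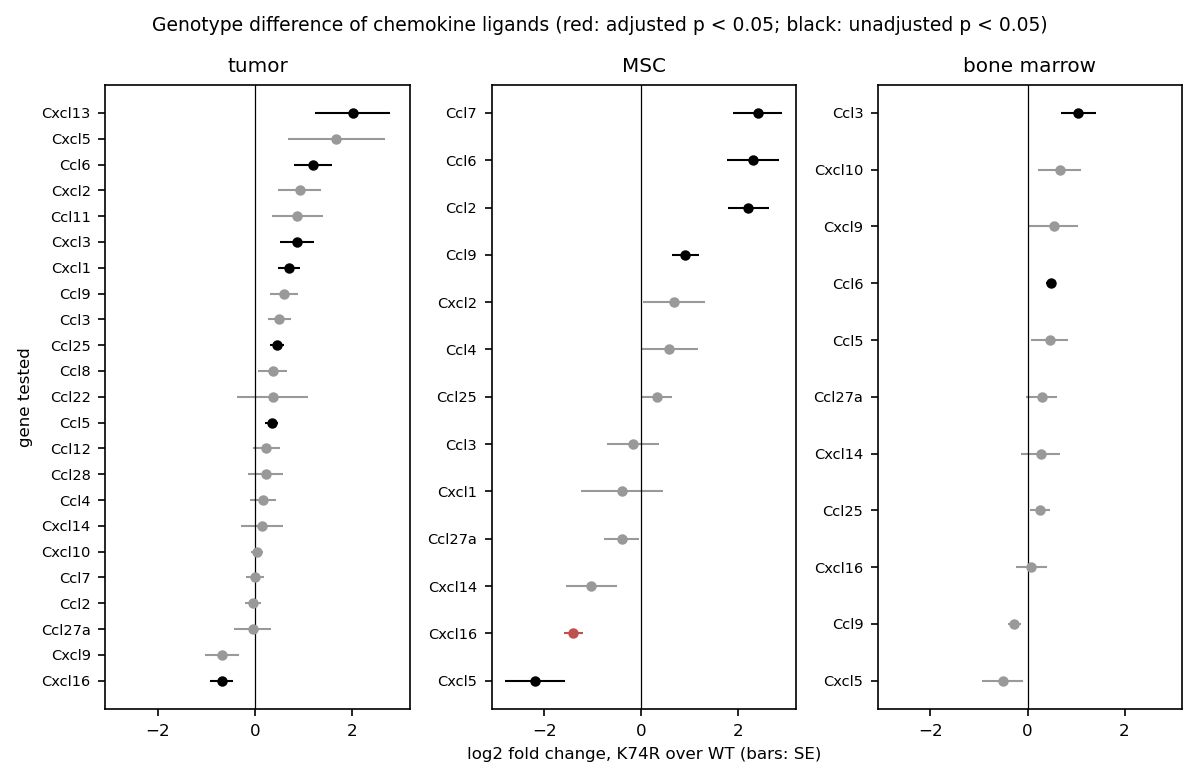
Log2 fold change of K74R over WT with its SE for every member tested in tumor (23), MSC (13) and bone marrow (11). The only member past the adjusted threshold is Cxcl16 in MSC, at −1.40.

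The genotype difference itself differed between tissues for Ccl2, Ccl7 and Cxcl16. The interaction was tested by edgeR's quasi-likelihood test in the model of all libraries, where 10.6% of genes were called for tumor against MSC, 18.8% for MSC against bone marrow and 0.0385% for tumor against bone marrow. For Ccl7 the genotype difference in tumor minus that in MSC was −2.42 on the log2 scale (SE 0.46, adjusted p 0.00377, edgeR), and for Ccl2 it was −2.27 (SE 0.44, adjusted p 0.00432, edgeR). Both calls held in 23 of 23 alternatives. All of these fitted the tissues in 1 model with a shared spread, so they cannot show how the calls depend on a larger spread in MSC. Between libraries of a group the chi-square per gene was 53 and 46.7 in MSC and at most 17.6 elsewhere. Within MSC alone neither gene passed the adjusted threshold. Ccl7 had 70.1, 76.9 and 55.7 CPM in K74R tumors, against 76.4, 48.6 and 79.9 CPM in WT tumors, which overlap, and the tumor log2 fold changes were −0.00 (SE 0.19) for Ccl7 and −0.04 (SE 0.16) for Ccl2. Ccl2 and Ccl7, the 2 of 23 members called, had separate K74R and WT libraries in MSC and overlapping ones in tumor. The remaining CCR2 ligand, Ccl12, was not called (−2.41, SE 1.14, adjusted p 0.207, edgeR). It overlapped in MSC, with 0.177 and 2.34 CPM in K74R and 0.307 and 0.0677 CPM in WT. For Cxcl16, the difference in MSC minus that in bone marrow was −1.45 (SE 0.41, adjusted p 0.022, edgeR), 1 of 23 members, and it was called in 17 of 23 alternatives. It was lost with limma-voom, with an adjusted p of 0.0808. It was also lost without K74R bone marrow 3 (0.0727), WT bone marrow 1 (0.054), WT bone marrow 3 (0.0519), K74R MSC 1 (0.0813) or WT MSC 1 (0.0529). For tumor against bone marrow edgeR called 0 members, 2 were higher at an unadjusted p under 0.05, where 5.34% of all genes were, and DESeq2 and limma-voom also called 0.

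**Figure D4:**
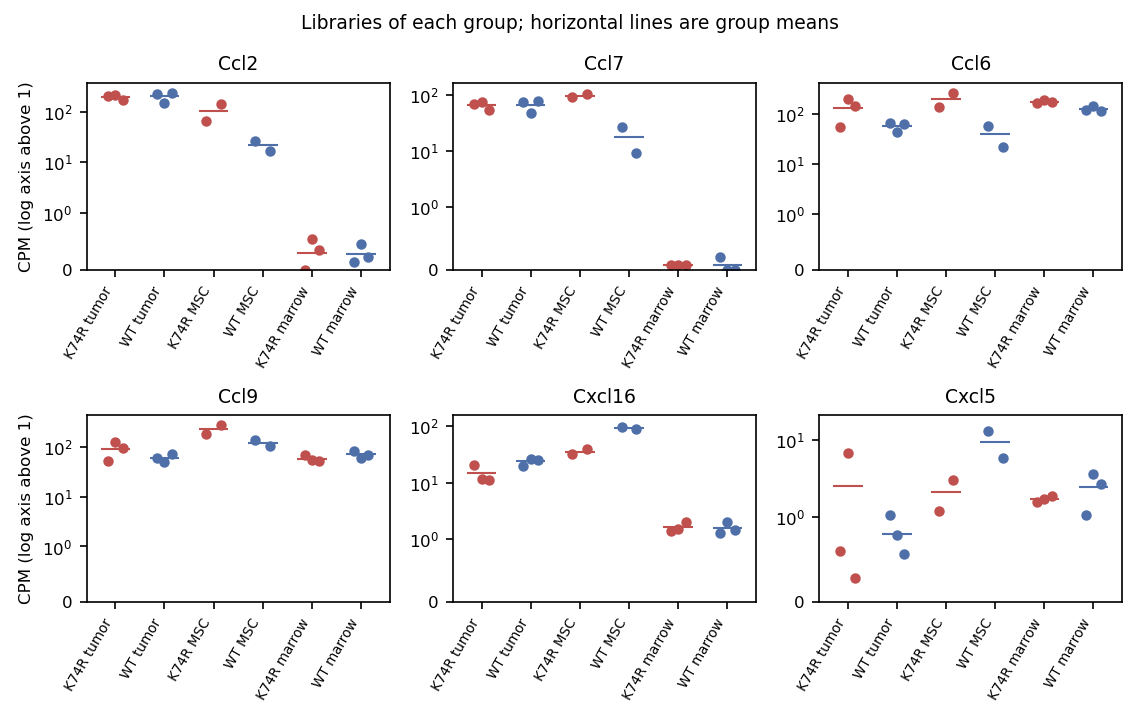
CPM of 6 ligands in every library by group, with the group mean as a line, K74R in red left of WT in blue and a log axis above 1 CPM. K74R MSC points of Ccl2, Ccl7, Ccl6 and Ccl9 lie above the WT MSC points, and those of Cxcl16 and Cxcl5 lie below them.

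Ccl2 and Ccl7 kept a nearly fixed ratio in tumors. Per kilobase, Ccl2 was 2.06, 1.93 and 2.14 times Ccl7 in K74R tumors and 2.09, 2.19 and 2.02 times in WT tumors. In MSC it was 0.496 and 0.947 times Ccl7 in K74R and 0.691 and 1.28 times in WT, so the ranges of tumor and MSC did not overlap and 3 of 4 MSC libraries held more Ccl7 than Ccl2. This comparison was made after the values were seen. The genotypes overlapped in both tissues.

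**Figure D5:**
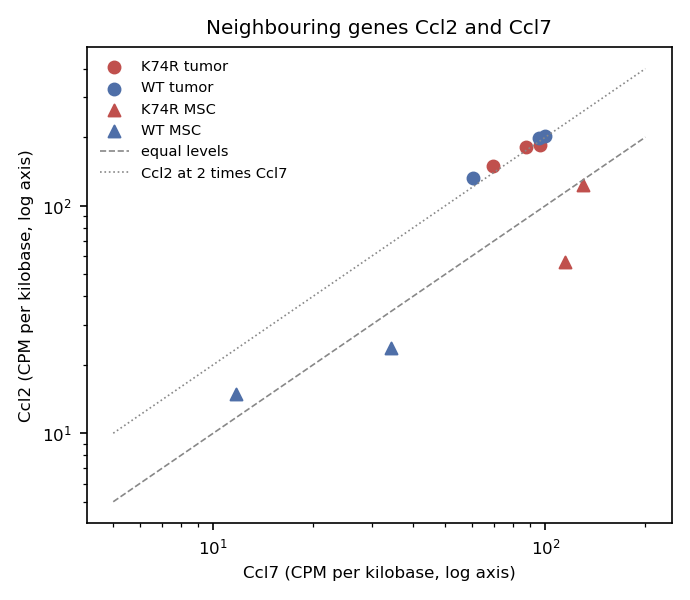
Ccl2 against Ccl7 in CPM per kilobase on log axes, 1 point per tumor (circles) or MSC (triangles) library. The 6 tumors lie along the dotted line at 2 times Ccl7, with ratios of 1.93 to 2.19, and the 4 MSC libraries have ratios of 0.496 to 1.28, on either side of the dashed line of equal levels.

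In tumor, 23 members passed the filter and edgeR's quasi-likelihood test, with adjusted p-values, called 0 of them, where 0.0406% of all genes were called. DESeq2 and limma-voom also called 0. At an unadjusted p under 0.05 there were 7 members, 6 higher and 1 lower, 7 of 23, where 11.2% of all 14779 genes passed, 5.05% higher and 6.19% lower. The fitted change was positive for 18 and negative for 5 members, with a median of 0.36, against 51.1% positive and a median of 0.00 over all genes. The 7 were Cxcl1, Cxcl3, Ccl6, Ccl25, Cxcl13 and Ccl5 above 0 and Cxcl16 below it.

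Cxcl1, a neutrophil-drawing CXCR2 ligand, had 14.3, 21.6 and 20.9 CPM in K74R tumors, against 10.4, 9.72 and 15.1 CPM in WT tumors, with a log2 fold change of 0.70 (SE 0.22, adjusted p 0.347, edgeR). Cxcl3 had 3.96, 9.69 and 7.47 CPM in K74R tumors, against 2.62, 4.44 and 4.62 CPM in WT tumors, and a log2 fold change of 0.87 (SE 0.35). In both, K74R tumors 2 and 3 were above every WT tumor and K74R tumor 1 was not. The same held for Ccl6, with 56.2, 202.1 and 145.2 CPM in K74R tumors, against 68.3, 45.1 and 63.5 CPM in WT tumors, and a log2 fold change of 1.20 (SE 0.39, adjusted p 0.353, edgeR). Without K74R tumor 1, Ccl6 was called at 1.57 (adjusted p 0.0161, edgeR), and without K74R tumor 2 it was 0.78 (adjusted p 0.483, edgeR). Cxcl16 had 20.8, 11.7 and 11.3 CPM in K74R tumors, against 20.2, 26.5 and 25 CPM in WT tumors, with a log2 fold change of −0.69 (SE 0.23, adjusted p 0.353, edgeR). Without K74R tumor 1 it was −1.03 and called (adjusted p 0.0228, edgeR). K74R tumor 1 thus lay within the WT range for Ccl6 and Cxcl16.

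Only 3 members, Ccl25, Cxcl13 and Ccl3, had all K74R tumors above all WT tumors, where 7.3% of all genes did, and none had them all below, where 9.64% of all genes did. Ccl25 had 16, 12.6 and 17.1 CPM in K74R tumors, against 12.2, 10 and 11.6 CPM in WT tumors, with a log2 fold change of 0.45 (SE 0.15, adjusted p 0.37, edgeR). Cxcl13, the B cell homing ligand of CXCR5, had 0.891, 2.41 and 2.2 CPM in K74R tumors, against 0.706, 0 and 0.668 CPM in WT tumors, and a log2 fold change of 2.01 (SE 0.77, adjusted p 0.397, edgeR). These levels are low, and 1 WT library was at 0. Cxcl9 had 102.3, 29.1 and 59.4 CPM in K74R tumors, against 108.8, 111.2 and 90.4 CPM in WT tumors. The lowest value was in K74R tumor 2, the library with the lowest T cell marker sum. WT tumor 2, with the next lowest T cell marker sum, 20.6 CPM, had the highest Cxcl9 value. The log2 fold change of Cxcl9 was −0.69 (SE 0.35, adjusted p 0.492, edgeR) and that of Cxcl10 was 0.04 (SE 0.12). Ccl9 and Ccl12 overlapped between the genotypes, Ccl9 with 51, 127.1 and 93.2 CPM in K74R tumors, against 59.4, 50 and 72.7 CPM in WT tumors, and Ccl12 with 9.51, 19.5 and 11.5 CPM, against 10.4, 9.37 and 15.1 CPM. The 7 macrophage markers summed to 452.5 to 675.9 CPM in K74R tumors, against 770.7 to 847.4 CPM in WT tumors, with none past the adjusted threshold and none at 0. Their part in the chemokine values was not tested.

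In bone marrow, 11 members passed the filter and edgeR's quasi-likelihood test, with adjusted p-values, called 0 of them, where 0.773% of all 14872 genes were called. DESeq2 called 1, Ccl6, and limma-voom 0, and 2 had an unadjusted p under 0.05, both higher, where 17.8% of all genes did and 9.8% were higher. Both had every K74R library above every WT library, as did 11.1% of all genes. Ccl6 (chromosome 11, 83587882 to 83593087, GRCm38, minus strand) had 170.6, 190.2 and 172.5 CPM in K74R marrow, against 119.7, 147.1 and 117.4 CPM in WT marrow, with a log2 fold change of 0.49 (SE 0.10, adjusted p 0.0774, edgeR). Leaving out WT bone marrow 2 brought it past the threshold (adjusted p 0.0116). Ccl3 had 3.39, 4.31 and 2.37 CPM in K74R marrow, against 1.87, 2.06 and 0.918 CPM in WT marrow, and a log2 fold change of 1.05 (SE 0.36, adjusted p 0.184, edgeR). Ccl9, next to Ccl6, had 69.3, 54 and 51.3 CPM in K74R marrow, against 83.1, 59.4 and 70.3 CPM in WT marrow, with overlap and a log2 fold change of −0.27 (SE 0.14). Per kilobase, Ccl6 was 4.18, 5.98 and 5.7 times Ccl9 in K74R marrow and 2.44, 4.2 and 2.83 times in WT marrow, and the genotypes overlapped by a small margin.

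The other 9 members tested in marrow overlapped between the genotypes. Ccl4, too low to be tested, did not, with 0.271, 0.479 and 0.766 CPM in K74R marrow, against 0.133, 0.193 and 0 CPM in WT marrow. Cxcl14 had 9.36, 18.6 and 16.6 CPM in K74R marrow, against 5, 15.1 and 17.4 CPM in WT marrow, and Cxcl9 had 4.14, 9.18 and 6.89 CPM, against 1.2, 6.68 and 6.12 CPM. In both, WT marrow 1 was the lowest library and K74R marrow 1 the next lowest. The fibroblast and stromal marker sum was lowest in WT marrow 1, at 95.6 CPM where the other 5 had 130.2 to 413.0 CPM. It was highest, however, in K74R marrow 1. The endothelial sum, 224.4 CPM, and the platelet and megakaryocyte sum, 716.6 CPM, were also lowest in WT marrow 1. Cxcl5 had 1.56, 1.71 and 1.88 CPM in K74R marrow, against 1.07, 3.66 and 2.68 CPM in WT marrow, and Cxcl10 had 0.746, 1.3 and 1.95 CPM, against 1.13, 0.643 and 0.765 CPM. Ccl5 had 2.37, 2.05 and 1.6 CPM in K74R marrow, against 1.47, 2.12 and 0.765 CPM in WT marrow, and Ccl25 had 8.48, 8.7 and 13.8 CPM, against 7.87, 9.06 and 9.1 CPM. The summed level of all members was 275.1, 296.2 and 275.6 CPM in K74R marrow, against 228.2, 252.9 and 231.1 CPM in WT marrow, without overlap, and Ccl6 made up most of it. The median log2 fold change of the 11 members was 0.29. The 6 B cell markers summed to 664.0 to 912.8 CPM in K74R marrow, against 334.3 to 625.8 CPM in WT marrow, and the 7 neutrophil markers to 19809 to 21513 CPM, against 24647 to 27193 CPM. None of either list passed the adjusted threshold, none was at 0, and their part in the Ccl6 value was not tested.

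The receptors of these ligands, 23 genes with atypical receptors included, were also counted. In MSC edgeR's quasi-likelihood test called 1 of 11 tested higher and 1 lower, where 3.34% of all genes were called. Cxcr4, the receptor of Cxcl12, fell, with 7.53 and 4.02 CPM in K74R MSC, against 206.4 and 149.3 CPM in WT MSC (log2 fold change −4.95, SE 0.39, adjusted p 0.0196, edgeR). Ccr3, the eotaxin receptor of eosinophils, rose, with 14.1 and 13.6 CPM in K74R MSC, against 2.03 and 1.22 CPM in WT MSC (log2 fold change 3.07, SE 0.35, adjusted p 0.0243, edgeR). Without K74R MSC 1 both calls were lost, at an adjusted p of 0.0933 for Cxcr4 and 0.11 for Ccr3. Neither Ccl11 nor Ccl24, both grouped here under CCR3, exceeded 0.615 CPM in an MSC library. The groups name only the best-known receptor, so ligands of other groups that may bind Ccr3 are not covered. The macrophage and endothelial sums given above differ between the same MSC libraries. In bone marrow 0 of 18 receptors were called, with 3 at an unadjusted p under 0.05, where 17.8% of all genes were, and in tumor 0 of 12, with 1, where 11.2% were. The smallest p in marrow was that of Cxcr4, with 333.9, 340.7 and 356.5 CPM in K74R and 267.9, 266.9 and 227.4 CPM in WT (log2 fold change 0.45, SE 0.08, adjusted p 0.0529, edgeR). In tumor it was that of Xcr1, a receptor of cross-presenting dendritic cells, with 0.941, 0.287 and 0.769 CPM in K74R and 1.77, 2.17 and 1.28 CPM in WT (log2 fold change −1.35, SE 0.43, adjusted p 0.348, edgeR). Both receptors had K74R and WT libraries that did not overlap, as had 22.9% of all genes tested in bone marrow and 16.9% in tumor. Receptors were not highest where their ligands were. Ccr2 had 223.8 to 408.9 CPM in bone marrow, where its ligands were near 0, and 0.647 to 1.88 CPM in MSC, where Ccl2 and Ccl7 were high. Cxcr2 likewise had 219.8 to 282.4 CPM in bone marrow and under 1 CPM in every tumor.

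Of the 24 genes that induce or relay chemokine expression, such as cytokines, NF-kB subunits and interferon-signalling factors, edgeR called 0 in each tissue. At an unadjusted p under 0.05 there were 5 lower and 0 higher of 20 tested in tumor, where 6.19% of all genes were lower and 5.05% higher. There were 7 lower and 1 higher of 18 in MSC, where 12.5% were lower and 13.5% higher. In bone marrow there were 1 lower and 5 higher of 20, where 7.99% were lower and 9.8% higher. Ifng, the inducer of Cxcl9 and Cxcl10, had 0.842, 0.459 and 1.21 CPM in K74R tumors, against 1.21, 1.33 and 1.56 CPM in WT tumors. Ifng of K74R tumor 3 equalled the lowest WT value to 3 digits, and the other K74R tumors were below all WT tumors. Irf8, an interferon-regulated factor of myeloid cells, had 29.1 and 41.6 CPM in K74R MSC, against 74.3 and 69.1 CPM in WT MSC (log2 fold change −1.03, SE 0.23, adjusted p 0.0667, edgeR). Nfkbia, the NF-kB inhibitor, had 70.6, 79.6 and 82.9 CPM in K74R marrow, against 59.4, 61.6 and 53.9 CPM in WT marrow (log2 fold change 0.43, SE 0.09, adjusted p 0.0818, edgeR). Socs3, a brake on cytokine signalling, had 9.02, 5.41 and 6.54 CPM in K74R marrow, against 16.9, 10.2 and 20.4 CPM in WT marrow (log2 fold change −1.16, SE 0.27, adjusted p 0.0935, edgeR). None of these 3, named for their small p, overlapped between the genotypes. Of all genes tested, 59.4% did not overlap in MSC and 22.9% in bone marrow. Of the other chemokines, Cxcl12, Pf4, Ppbp, Cx3cl1 and Xcl1, edgeR called 0 in each tissue. At an unadjusted p under 0.05 there were 1 of 5 in tumor, 1 of 3 in MSC and 0 of 4 in bone marrow. The shares of all genes tested were 11.2%, 26% and 17.8%, in the same order. Cxcl12 had 1556 and 3080 CPM in K74R MSC, against 5092 and 8905 CPM in WT MSC (log2 fold change −1.60, SE 0.46, adjusted p 0.108, edgeR).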

How the data were processed

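RNA was extracted with TRIzol and made into libraries with the KAPA mRNA HyperPrep kit, per the labels' protocols. What the authors deposited are counts of reads per gene, whole numbers without normalization, in 16 libraries. Trimmomatic 0.38, HISAT2 2.1.0 and featureCounts 1.6.0, with FastQC and MultiQC, on GRCm38 are named in the submitters' processing notes. The sources used here do not give the annotation release, the strand setting or the handling of multi-mapped reads. WT tumor columns carry a letter R, and WT MSC columns read KCF where K74R ones read KLF, with no meaning stated.

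All 55536 identifiers matched GENCODE release M21, which gave symbols, biotypes and exon lengths. Counts were tested with R 4.3.3 and edgeR 4.0.16 (filterByExpr by group, trimmed mean of M-values, glmQLFit and glmQLFTest, Benjamini-Hochberg adjustment over all genes tested, threshold 0.05). Genotypes were compared within each tissue, and tissues and interactions in 1 model of 6 groups. The SE is the log2 fold change over the square root of F. Libraries of a group differed beyond counting noise, with a chi-square per gene of 6.33 to 53, so none was merged. Alternatives were relative log expression factors, scaling by library size, testing without a filter, keeping genes that reach 1 CPM, limma-voom (limma 3.58.1), DESeq2 1.42.0, the replicate number as a block, all 16 libraries in 1 model for genotype, WT libraries only for tissue, and each library left out.

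Library values are given for members past the threshold, for the 6 with the smallest p in each genotype comparison and for the 8 highest per kilobase in each tissue. Receptors, inducers and other chemokines are named when past the threshold, or by smallest p. An inducer that this rule names is not reported here. Ccr2, Cxcr2, Ifng, Ccl11 and Ccl24 as receptor or ligand partners were added after their values were seen. The members and lists were chosen with earlier results of these data known. Promoter windows are from RefSeq. Counts without molecular identifiers are not independent molecules, so floors of 3 counts cover counting error only.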

Additional observations from a re-analysis of the deposited data

Results flagged for a closer look

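The genotype difference of 3 members differed between tissues by a test of the interaction with edgeR's quasi-likelihood test. These were 2 of 23 members for tumor minus MSC, where 10.6% of all genes were called, and 1 of 23 for MSC minus bone marrow, where 18.8% were. Ccl7 (tumor minus MSC) had a value of −2.42 and Ccl2 (tumor minus MSC) of −2.27 on the log2 scale, with K74R above WT in MSC in 2 of 2 libraries and no separation in tumor. Cxcl16 (MSC minus bone marrow) had −1.45, with K74R below WT in MSC in 2 of 2 libraries and overlapping libraries in bone marrow, and this call held in 17 of 23 alternatives. No group of libraries was large enough for a test of single outlying values.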

How the results depend on the processing

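The counts of members called between tissues stayed within 1.5 times the reported count under every alternative, with 20 to 22, 19 to 22 and 16 to 20 members when libraries were left out for tumor against MSC, tumor against bone marrow and MSC against bone marrow. Library size alone shifted the median of all genes by 0.216 for tumor against MSC and 0.149 for tumor against bone marrow on the log2 scale. The genotype counts moved. In bone marrow 0 became 1, Ccl6, without a filter on low counts and with DESeq2, where calls over all genes became 875 and 518, against 115 as reported, and 0 to 1 with libraries left out. In MSC 1 became 9 without a filter, 6 with DESeq2 and 4 with all 16 libraries in 1 model, and 0 (without K74R MSC 1) to 4 (without WT MSC 1) with libraries left out, where a lone sample is assumed to vary like the other group. Over all genes the calls in MSC became 3063 without a filter, 1906 with DESeq2 and 4430 with all 16 libraries, against 484 as reported. In tumor 0 became 9 without a filter, where calls over all genes became 810, against 6 as reported, and 0 to 2 (without K74R tumor 1) with libraries left out. The interaction counts became 6, 4 and 6 without a filter, against 2 (tumor minus MSC), 0 (tumor minus bone marrow) and 1 (MSC minus bone marrow) as reported. For MSC minus bone marrow it was 4 with DESeq2, 0 with limma-voom and 0 to 3 with libraries left out. It was 2 to 3 for tumor minus MSC and 0 for tumor minus bone marrow with libraries left out. The cause was not tested. Library numbers are shared between genotypes, and whether they pair the samples is not known. Same-numbered libraries correlated at 0.284, 0.138 and −0.103 in bone marrow, −0.179 in MSC and 0.0278, −0.0531 and 0.0527 in tumor. These correlations are of values centred within groups of 2 or 3 libraries, which constrains them, so they cannot settle the pairing. With the replicate number as a block the count of members called became 1 in bone marrow, 4 in MSC and stayed 0 in tumor. Of single genes, the sign changed in bone marrow for Ccl25, −0.01 without K74R replicate 3, and for Ppbp, 0.05 without K74R replicate 1, 0.10 without WT replicate 2 and 0.05 without WT replicate 3, and in MSC for Cx3cl1, 0.31 without WT replicate 2. With libraries left out they ranged from −0.01 to 0.39, from −0.40 to 0.10 and from −0.86 to 0.31, none called. The number of libraries, 2 a group in MSC and 3 elsewhere, limits the precision.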

Other observations

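Cxcl11, the third CXCR3 ligand, lies outside the rule because the annotation lists it as a polymorphic pseudogene, and its values were looked at after the members were fixed. It had 6.93, 6.36 and 6.26 CPM in K74R tumors, against 2.57, 2.12 and 3.62 CPM in WT tumors, without overlap. Its log2 fold change was 1.25 (SE 0.23, edgeR adjusted p 0.206), while Cxcl10 had 0.04 and Cxcl9 −0.69. The difference between these genes was not tested. It was at 0 in all MSC libraries and at most 0.139 CPM in bone marrow.

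Ackr4, an atypical receptor that takes up CCR7 and CCR9 ligands, had 22.4 and 58.5 CPM in K74R MSC, against 116.2 and 199.0 CPM in WT MSC (log2 fold change −1.97, SE 0.50, adjusted p 0.0885, edgeR). In the MSC libraries the CCR9 ligand Ccl25 had 4.74 to 7.85 CPM, and the CCR7 ligands Ccl19 and Ccl21, whose values are uncertain, were at 0. It was chosen after its values were seen.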
